A study of Mus musculus with 4 samples.

Results

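The 39 genes described here carry out DNA replication or open the way to it at the boundary of G1 and S phase. They were taken by name from a fixed list of origin licensing, polymerase, nucleotide synthesis and E2F genes, out of 49490 genes in the deposited table. No measured value entered that rule, but the list was chosen with earlier results of these data known. Each of the 39 was found, and each passed the filter on low values, a normalized count of at least 10 in at least 2 libraries, which 18378 genes passed. The study sequenced polyadenylated RNA of mouse CD8+ T cells (killer T cells) from lymph nodes and spleens, activated in vitro, to find genes that IRF8, a transcription factor of the interferon regulatory factor family, regulates. There were 2 libraries labelled Irf8 knockout, described by the submitters as Irf8-/-, and 2 labelled WT, described as Irf8fl/fl, that is with an Irf8 allele flanked by recombination sites. The sources used here do not give the promoter of any recombinase, the age or number of the animals, or the activating stimulus. The labels call the libraries of a group replicates without naming separate mice or cultures, so the p-values speak only of the spread among these 4 libraries, which may be technical.

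In a cycling cell, cyclin E with CDK2 takes part in the release of E2F transcription factors from the retinoblastoma protein. E2F then switches on the genes that make the replication machinery. Origins are licensed in G1, when CDC6 and CDT1 load the ring of MCM proteins on DNA. In S phase CDC45, the GINS complex and MCM10 turn that ring into a moving helicase, polymerases copy both strands behind the PCNA clamp, and the fragments of the lagging strand are trimmed and joined. Activated CD8+ T cells are known for very fast division, and these genes are among those that rise when they leave rest.

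Irf8 itself was read first because it checks the labels. Its gene, ENSMUSG00000041515.10, lies on the plus strand of chromosome 8 from 120736358 to 120756694 in build mm10. The normalized count was 89508 and 90222 in the libraries labelled knockout, against 6364 and 6081 in those labelled WT. The 2 groups lay far apart, 14.4-fold higher under the knockout label (log2 fold change 3.85, standard error 0.04, limma adjusted p = 4.32e-08), which goes against the labels, and a count per gene does not separate its exons. A positive log2 fold change means a higher value under the knockout label, and each direction rests on those labels. Libraries held 58899365 to 59724952 recovered reads.

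The cell type in the labels was checked against marker lists. The 23 T cell markers summed to 637129 and 646363 in the libraries labelled knockout and to 927937 and 913527 in those labelled WT. Of the 23, 21 fell, Tcf7 rose (log2 fold change 0.17, limma adjusted p = 0.0392) and Trac, the T cell receptor alpha constant gene, did not pass (log2 fold change -0.01), and none was at 0. Trac, Thy1 and Cd3e had the highest means over the 4 libraries, and the log2 fold changes of Thy1 and Cd3e were -0.64 and -0.69. All 20 plasmacytoid dendritic cell markers rose, and their sum was 396466 and 398062 in the libraries labelled knockout against 52533 and 51613 in those labelled WT. Siglech, a defining receptor of those cells, had 84171 and 84408 in the libraries labelled knockout against 210 and 194 in those labelled WT. Lag3 and Bst2, the next in mean level, had 29161 and 30635 (Lag3) and 27623 and 27950 (Bst2) against 20621 and 20164 (Lag3) and 7465 and 7833 (Bst2) in those labelled WT. Most of the list's sum in the libraries labelled WT came from Lag3, Irf7, Runx2 and Bst2, with means there of 20393, 10066.5, 8196 and 7649. Their log2 fold changes, 0.55, 0.23, 1.28 and 1.86, were the smallest of the list. Of 13 conventional dendritic cell and class II markers 12 rose, and their sum was 514089 and 520888 against 52137 and 53326 in the libraries labelled WT. Cd74, H2-Aa and H2-Ab1, which serve antigen presentation on class II, led this list, and Cd74 averaged 259254 in the libraries labelled knockout and 16197 in those labelled WT. The 10 B cell markers summed to 8351 and 8245 in the libraries labelled knockout and to 386 and 304 in those labelled WT, with 3 of 9 tested higher. Blnk made up most of that sum, with 7020 and 6909 in the libraries labelled knockout against 56.0 and 22.5 in those labelled WT, and Ebf1, at 26.5 and 11.7 in the libraries labelled knockout, was at 0 in both labelled WT. The 15 macrophage and neutrophil markers summed to 23449 and 23286 against 16277 and 17924 in the libraries labelled WT, with 6 of 14 tested higher and 5 lower. Cd68 averaged 11154 in the libraries labelled knockout and 1817 in those labelled WT, whereas Lyz2 averaged 8379 and 12204, and C1qa, C1qb, C1qc and Fcgr1 also fell. The neutrophil genes Mpo, Elane and Camp, with means of 273, 76.7 and 58.1 in the libraries labelled knockout, were at 0 in both labelled WT. S100a8 and S100a9 of the same list averaged 1283 and 383 in the libraries labelled knockout against 69.4 and 29.1 in those labelled WT. Ly6g, also on the list, had 4.90 and 0 in the libraries labelled knockout against 0 and 6.13 in those labelled WT, too low to be tested. The part of these other cell markers in the results below was not tested. In bulk RNA, fewer cells of a type and less RNA per cell cannot be told apart.

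Sequence is shown first, for promoters where the E2F factors that govern many of these genes could bind. RefSeq promoter windows of build GRCm38.p6, from 250 bases before to 50 after a gene's start, matched 32 of the 39 members, with 38 windows because some genes have several starts. Ccne2, Exo1, Gins1, Gins2, Mcm4, Pole and Rfc2 had no entry. The E2F core was searched on both strands as TTCCCGC or TTCGCGC or TTGGCGC or TTGCCGC, and a match on one strand can overlap a match on the other. It was held by 23 of the 38 windows, 60.5%, against 9.57% of all 32851 windows in the table and 15.5% of the windows of genes tested. The list was drawn up around E2F genes, so that share describes the choice of members and is not a result of the comparison.

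The windows below are the 180 bases just before the RefSeq start, written 5′ to 3′ on the strand of the gene with E2F cores in capitals. They are shown because they hold at least 1 core and no annotated exon, and because the genes behind them moved in different directions: Rrm1 (chr7:102441515-102441694, plus strand) rose, Mcm6 (chr1:128359706-128359885, minus strand) and Pola1 (chrX:93632156-93632335, minus strand) fell, and Mcm5 (chr8:75109329-75109508, plus strand) and Chaf1a (chr17:56040236-56040415, plus strand) did not pass the test.
Rrm1: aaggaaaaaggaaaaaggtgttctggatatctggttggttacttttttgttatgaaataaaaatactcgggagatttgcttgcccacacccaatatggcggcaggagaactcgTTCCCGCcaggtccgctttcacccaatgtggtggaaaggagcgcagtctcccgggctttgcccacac
Mcm6: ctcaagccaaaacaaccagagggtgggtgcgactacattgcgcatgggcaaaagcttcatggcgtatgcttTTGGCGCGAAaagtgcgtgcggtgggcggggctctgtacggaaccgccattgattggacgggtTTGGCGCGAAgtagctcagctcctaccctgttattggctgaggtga
Pola1: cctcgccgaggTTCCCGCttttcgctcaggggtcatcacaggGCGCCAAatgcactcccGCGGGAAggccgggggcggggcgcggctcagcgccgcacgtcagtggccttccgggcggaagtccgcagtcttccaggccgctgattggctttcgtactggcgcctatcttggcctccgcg
Mcm5: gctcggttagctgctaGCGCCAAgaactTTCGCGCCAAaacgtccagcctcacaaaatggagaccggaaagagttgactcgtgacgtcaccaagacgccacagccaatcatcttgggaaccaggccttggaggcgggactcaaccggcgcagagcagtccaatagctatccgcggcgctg
Chaf1a: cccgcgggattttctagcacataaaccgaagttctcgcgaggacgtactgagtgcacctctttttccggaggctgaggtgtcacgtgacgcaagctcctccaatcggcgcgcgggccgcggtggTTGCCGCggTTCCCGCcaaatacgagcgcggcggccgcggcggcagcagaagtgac

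In the Mcm6 window 4 matches form 2 blocks, since each block reads as a core on either strand, and the Mcm5 window holds a similar block beside a single core. The Pola1 window holds 3 separate cores, and those of Chaf1a and Rrm1 hold 2 and 1. Among members with a window, a core was found in 4 of the 8 that rose, 3 of the 5 that fell and 13 of the 19 that did not pass the test. The members without a core in their window included E2f1 and Ung, which rose, and Pcna and Dut, which fell. The NF-Y box CCAAT was held by 55.3% of member windows and 37.4% of all windows, and the CHR element TTTGAA, known from genes of G2 and mitosis, by 13.2% of member windows and 17.9% of all windows. Of the windows of genes tested, 37.4% held the NF-Y box and 12.8% the CHR element, the latter close to the share of the members. The interferon-stimulated response element GAAANNGAAA was found in 0 of the 38 windows, against 3.44% of all windows. The composite element of ETS and IRF factors, GGAANNGAAA, was also found in 0 of the 38, against 2.72% of all windows. A missing match says only that these letters are not in these windows.

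**Figure D1:**
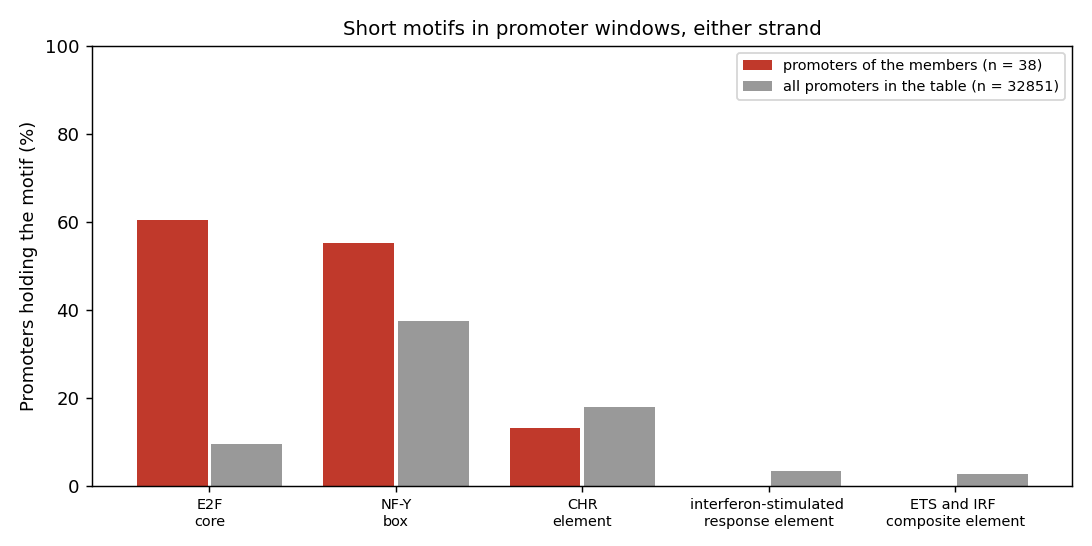
Percent of promoter windows that hold each motif on either strand, for the 38 windows of the members (red) and all 32851 windows in the table (grey). The E2F core is in 60.5% of member windows and 9.57% of all windows, and neither element of interferon regulatory factors is in a member window.

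As a whole, the replication genes stood at nearly the same summed level under both labels. The summed normalized count of the 39 genes was 104833 and 106055 in the libraries labelled knockout and 105803 and 104237 in those labelled WT, so the groups overlapped. Beside the T cell marker sum, the members came to 16.5% and 16.4% in the libraries labelled knockout against 11.4% and 11.4% in those labelled WT. At an adjusted p under 0.05 by limma, 8 members rose, 5 fell and 26 did not pass. That is 33.3% of the members, where 33.4% of all genes tested were called, with 20.5% higher and 12.8% lower, where 19.9% and 13.4% of all genes were. The share called is that of the background and no result about these genes. Values of the groups did not overlap for 28 members, or 71.8%, where 68.8% of all genes did not overlap.

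Under the deposited scaling the changes were small in size. The log2 fold change ran from -0.40 for Pola1 to 0.85 for E2f1, with a median of 0.06, where the median of all genes tested was 0.02. The median absolute log2 fold change was 0.20 in the members and 0.31 in all genes tested. Only 3 of the 39 members, 7.69%, changed by 0.5 or more on the log2 scale, where 34.1% of all genes tested did. All genes tested include genes at low counts, whereas no member value lay below 95.7. These comparisons of size were not matched for level. For 24 members the 95% confidence interval lay within plus or minus 0.5, and 18 of these are among the 26 that did not pass. The half-width of that interval ran from 0.11 to 0.52, and members with low counts, such as Gins1, had the widest. In the deposited table of the authors' own comparison, 7 members were higher and 5 lower under the knockout label at an adjusted p under 0.05, a rule that called 25.6% of the genes with an adjusted p there, and 12 members were called in the same direction in both.

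The scaling of the libraries bears on every direction and size. The counts above of changes of 0.5 or more, and of intervals within 0.5, hold for the deposited scaling only. With median centring E2f1 stood at 0.55, while Ccne1, E2f2 and Cdt1 stood at -0.52, -0.56 and -0.65. Centring each library on its median moved every log2 fold change by -0.30, and the members then counted 3 higher and 20 lower. Over all 18378 genes tested, it gave 2389 higher and 7210 lower. Each count with median centring given below stands beside that shift of all genes. The median of the members turned to -0.24, and it was 0.04 above that of all genes under both scalings. E2f1, Ung and Pold1 were the members called higher under either scaling, and Cdt1, Mcm6, Pola1, Pcna and Dut were lower under either. Leaving out a library also changed the calls, but such a fit takes its spread from the pair under the other label alone. Calls over all genes also became fewer when either knockout-labelled library was left out, so a lost call need not rest on that library. The median log2 fold change of the members was 0.086 and 0.048 without knockout-labelled replicates 1 and 2. Leaving out knockout-labelled replicate 1 left 3 members called higher and 0 lower by limma, and leaving out knockout-labelled replicate 2 left 2 and 0, with 5 lower at an unadjusted p under 0.05 in each case. Dropping WT-labelled replicate 1 gave 5 members called higher and 5 lower, with 8 of the 13 calls kept and Ccne1 and Mcm10 gained. E2f1 and Ung were called higher whichever library was left out, with an adjusted p of at most 0.0387 and 0.0487.

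**Figure D2:**
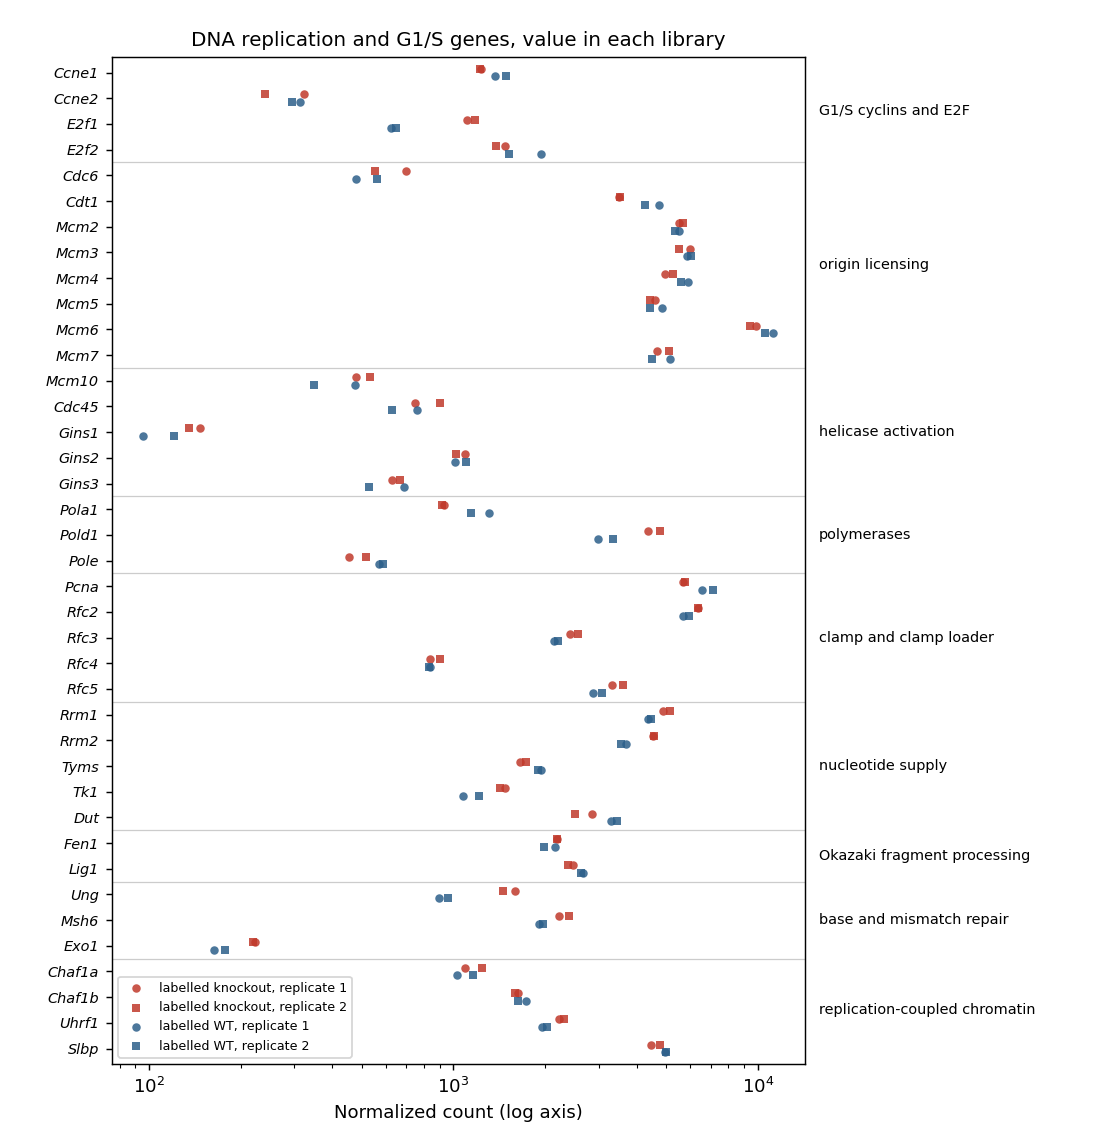
Normalized count of each of the 39 genes in each library on a log axis, grouped by role, with libraries labelled knockout in red above those labelled WT in blue. The values span 95.7 to 11257, and for most genes the 4 libraries lie close together.

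Among the cyclins and E2F factors, E2f1 was the gene that moved most. E2f1 (ENSMUSG00000027490.17, chromosome 2, 154559407 to 154569892, minus strand, mm10), an activator of S phase genes, had 1108 and 1174 in the libraries labelled knockout against 623 and 645 in those labelled WT. The groups were far apart, and the log2 fold change was 0.85 with a standard error of 0.09 (limma adjusted p = 6.96e-04). E2f2, a related activator, had 1478 and 1383 in the libraries labelled knockout against 1934 and 1517 in those labelled WT. Its log2 fold change was -0.26 (confidence interval -0.56 to 0.03, limma adjusted p = 0.154), and WT-labelled replicate 1 stood above the other 3 libraries. Without WT-labelled replicate 2, E2f2 was called lower (log2 fold change -0.44, limma adjusted p = 0.00469), as it was with median centring (-0.56, limma adjusted p = 0.00990).

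The E-type cyclins, which drive CDK2 at the start of S phase, did not pass the test under the deposited scaling. Ccne1 had 1232 and 1226 in the libraries labelled knockout against 1373 and 1489 in those labelled WT. Its groups did not overlap, and its log2 fold change was -0.22 (limma adjusted p = 0.0763, or 0.0409 without WT-labelled replicate 1). With median centring Ccne1 was called lower, with a log2 fold change of -0.52 (limma adjusted p = 0.00157). Ccne2 had 322 and 240 against 313 and 295 in the libraries labelled WT, with a log2 fold change of -0.13 (confidence interval -0.56 to 0.31). The sign of Ccne2 turned to 0.084 without knockout-labelled replicate 2, and 17.4% of its exon length is shared with Ints8 on the other strand, whose reads cannot be told apart because the use of strand is not given. Per kilobase of exon, Ccne1 averaged 462 in the libraries labelled knockout and 538 in those labelled WT, above Ccne2 with 80.5 and 87.1.

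Of the 8 origin licensing genes, 2 fell and none rose, while edgeR and DESeq2 called 3 lower and median centring 7. The 2 are 25% of the list, where limma called 13.4% of all genes tested lower and 33.4% in either direction. Cdt1 (ENSMUSG00000006585.3, chromosome 8, 122568015 to 122573554, plus strand), which loads MCM rings together with CDC6, had 3504 and 3528 in the libraries labelled knockout against 4736 and 4251 in those labelled WT. Both libraries labelled knockout lay below both labelled WT, with a log2 fold change of -0.35 and a standard error of 0.06 (limma adjusted p = 0.00744). Its partner Cdc6 had 700 and 553 in the libraries labelled knockout against 479 and 560 in those labelled WT, so the groups overlapped, and the log2 fold change was 0.26 (limma adjusted p = 0.236) or -0.037 with median centring. No licensing gene rose at an unadjusted p under 0.05, nor by edgeR or DESeq2.

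The MCM proteins form a ring of 6 different subunits. Under the deposited scaling only Mcm6 was called, and with median centring all 6 were called lower, with log2 fold changes from -0.48 to -0.26. The summed count of Mcm2 to Mcm7 was 35611 and 35400 in the libraries labelled knockout against 38521 and 36439 in those labelled WT, a ratio of 0.947. Mcm6, the most abundant member by count, had 9887 and 9433 in the libraries labelled knockout against 11257 and 10580 in those labelled WT, and its log2 fold change was -0.18 with a standard error of 0.05 (limma adjusted p = 0.0315). Mcm4 had a log2 fold change of -0.17 (limma adjusted p = 0.0550). Mcm2, Mcm3, Mcm5 and Mcm7 had log2 fold changes of 0.042, -0.045, -0.037 and 0.022 under the deposited scaling, and the signs of Mcm2 and Mcm7 turned with median centring. Their confidence intervals lay between -0.18 and 0.22. Per kilobase of exon the subunits averaged 803 (Mcm2) to 2070 (Mcm6) in the libraries labelled knockout and 780 (Mcm2) to 2340 (Mcm6) in those labelled WT. The calls of Cdt1 and Mcm6 were lost without knockout-labelled replicate 1 (limma adjusted p of 0.115 and 0.133) and without knockout-labelled replicate 2 (0.114 and 0.241), and that of Mcm6 also without WT-labelled replicate 1 (0.0582).

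Limma called 33.4% of all genes tested, whereas none of the 5 genes that activate the helicase passed by limma, edgeR or DESeq2. Of the 5, 0 had an unadjusted p under 0.05. No log2 fold change among them was negative under the deposited scaling, while median centring turned the signs of Cdc45, Gins2 and Gins3 and put Gins2 among the members called lower. Gins1, a GINS subunit and the member with the lowest count, had 147 and 135 in the libraries labelled knockout against 95.7 and 120 in those labelled WT. Its groups did not overlap, and its log2 fold change of 0.39 had a confidence interval from -0.13 to 0.91 (limma adjusted p = 0.217). Gins2 had 1091 and 1021 in the libraries labelled knockout against 1011 and 1101 in those labelled WT, so the libraries of each group lay among those of the other. Its log2 fold change was 0.0007, with a confidence interval from -0.21 to 0.21, and 67.3% of its exon length is shared with Gse1 on the other strand. Cdc45, which joins MCM and GINS in the helicase, and Mcm10, which acts when the helicase starts, had log2 fold changes of 0.25 and 0.31. Mcm10 had 478 and 533 against 474 and 347 in the libraries labelled WT, and without WT-labelled replicate 1 it was called higher (log2 fold change 0.54, limma adjusted p = 0.0205). Gins3 had a log2 fold change of 0.10 (limma adjusted p = 0.633), and -0.09 without WT-labelled replicate 2.

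The replicative polymerases moved apart. Pold1 (ENSMUSG00000038644.14, chromosome 7, 44532746 to 44548849, minus strand), the catalytic subunit of polymerase delta, which copies the lagging strand, had 4364 and 4773 in the libraries labelled knockout against 2993 and 3332 in those labelled WT. The groups did not overlap, and the log2 fold change was 0.53 with a standard error of 0.07 (limma adjusted p = 0.00243). Pola1 (ENSMUSG00000006678.6, chromosome X, 93304767 to 93632155, minus strand), the catalytic subunit of polymerase alpha, which extends the primers, fell to 933 and 918 in the libraries labelled knockout, against 1312 and 1143 in those labelled WT. Its log2 fold change was -0.40 with a standard error of 0.10 (limma adjusted p = 0.0198). Pole, the catalytic subunit of the leading strand polymerase, had 454 and 515 against 568 and 587 in the libraries labelled WT, with a log2 fold change of -0.26 (limma adjusted p = 0.142), or -0.56 (limma adjusted p = 0.00731) with median centring. Per kilobase of exon, Pold1 stood at 940 in the libraries labelled knockout and 651 in those labelled WT, far above Pola1 with 105 and 139 and Pole with 43.4 and 51.7. Without knockout-labelled replicate 2 the limma adjusted p was 0.0756 for Pold1 and 0.163 for Pola1, and without knockout-labelled replicate 1 it was 0.145 for Pola1.

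Of the 5 genes of the sliding clamp and its loader, 1 fell and 1 rose, or 40%, where 33.4% of all genes tested were called. Pcna, the clamp that holds polymerases on DNA, had 5672 and 5748 in the libraries labelled knockout against 6577 and 7151 in those labelled WT. Its log2 fold change was -0.26 with a standard error of 0.05 (limma adjusted p = 0.0107). Reads of its pseudogene Pcna-ps2, which averaged 296 in the libraries labelled knockout and 364 in those labelled WT, can be shared with it. The small loader subunits Rfc2, Rfc3, Rfc4 and Rfc5 had log2 fold changes of 0.13, 0.20, 0.060 and 0.22, and Rfc5 alone was called (limma adjusted p = 0.0445), while median centring turned all 4 signs and called Rfc2 lower. Rfc5 had 3322 and 3607 in the libraries labelled knockout against 2865 and 3068 in those labelled WT, and 10.7% of its exon length is shared with Wsb2 on the other strand. Rfc2 shares 15.1% of its exon length with Lat2, which averaged 2830 in the libraries labelled knockout and 1083 in those labelled WT. Rfc4 shares 12.65% with Eif4a2 on the other strand. Eif4a2 averaged 21200 in the libraries labelled knockout and 20900 in those labelled WT, against 868 and 832 for Rfc4. The part of its reads in the value of Rfc4 was not tested. The limma adjusted p of Pcna was 0.135 and 0.126 without knockout-labelled replicates 1 and 2, and that of Rfc5 was 0.118, 0.267 and 0.0923 without knockout-labelled replicates 1 and 2 and WT-labelled replicate 1.

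In nucleotide supply, 3 of 5 genes rose and 1 fell. That is 60% higher and 20% lower on a list of only 5, where 19.9% and 13.4% of all genes tested were. Both subunits of ribonucleotide reductase, the enzyme that makes deoxyribonucleotides, were higher in the libraries labelled knockout under the deposited scaling, and Rrm1 turned with median centring. Rrm2, the small subunit, had 4532 and 4570 in the libraries labelled knockout against 3693 and 3556 in those labelled WT, with a log2 fold change of 0.33 and a standard error of 0.05 (limma adjusted p = 0.00321). Rrm1, the large subunit, had 4881 and 5127 against 4353 and 4454 in the libraries labelled WT, with a log2 fold change of 0.18 (limma adjusted p = 0.0310). Per kilobase of exon Rrm2 averaged 1642 in the libraries labelled knockout and 1308 in those labelled WT, above Rrm1 with 454 and 400. That order rests on the annotated exon lengths, 2771 bases for Rrm2 and 11012 for Rrm1. By count Rrm1 was the higher under both labels. Tk1, the thymidine kinase of S phase, had 1474 and 1420 in the libraries labelled knockout against 1075 and 1209 in those labelled WT, with a log2 fold change of 0.34 (limma adjusted p = 0.0254).

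Dut and Tyms, which make and guard the pool of thymidine nucleotides, pointed the other way. Dut, which removes dUTP, had 2841 and 2510 in the libraries labelled knockout against 3289 and 3438 in those labelled WT, and its log2 fold change was -0.33 with a standard error of 0.07 (limma adjusted p = 0.0165). Tyms, thymidylate synthase, had 1651 and 1731 against 1939 and 1900 in the libraries labelled WT, with a log2 fold change of -0.18 (limma adjusted p = 0.0776), or -0.48 (limma adjusted p = 0.00142) with median centring. With median centring the log2 fold changes of Rrm2, Tk1 and Rrm1 were 0.028, 0.043 and -0.12, and none of them was called. The limma adjusted p without knockout-labelled replicates 1 and 2 was 0.0651 and 0.0723 for Rrm2, 0.111 and 0.205 for Rrm1, 0.188 and 0.153 for Tk1 and 0.0515 and 0.128 for Dut. Without WT-labelled replicate 1 it was 0.0519 for Rrm1 and 0.0523 for Tk1.

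Base excision and mismatch repair held the second largest change. Ung (ENSMUSG00000029591.14, chromosome 5, 114130386 to 114139323, plus strand), the glycosylase that removes uracil from DNA, had 1595 and 1452 in the libraries labelled knockout against 899 and 962 in those labelled WT. The groups were well apart, with a log2 fold change of 0.71 and a standard error of 0.09 (limma adjusted p = 0.00139). Ung thus rose where Dut, which keeps uracil out of DNA, fell. Msh6, which recognises mismatches in new DNA, had 2220 and 2390 in the libraries labelled knockout against 1912 and 1970 in those labelled WT, with a log2 fold change of 0.25 (limma adjusted p = 0.0318) or -0.053 with median centring. Exo1, a nuclease of mismatch repair, had 223 and 220 against 163 and 178 in the libraries labelled WT, and its log2 fold change of 0.38 did not pass (confidence interval -0.01 to 0.77). The limma adjusted p of Msh6 was 0.0991 and 0.199 without knockout-labelled replicates 1 and 2, and 0.0562 without WT-labelled replicate 1.

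The genes that finish lagging strand fragments and those that package new DNA did not pass the test by limma, edgeR or DESeq2 under the deposited scaling or that of the tool, and Uhrf1 alone of these 6 had an unadjusted p under 0.05. Over all genes tested, limma called 33.4% under the deposited scaling. With median centring 4 of the 6 were called lower, namely Fen1 (-0.22), Lig1 (-0.42), Chaf1b (-0.36) and Slbp (-0.41), where 7210 of the 18378 genes tested were. Fen1, the flap nuclease, had 2183 and 2195 in the libraries labelled knockout against 2164 and 1986 in those labelled WT, with a log2 fold change of 0.079, or -0.22 with median centring. The annotated gene Gm10143 covers 78.8% of its exon length on the other strand. Tmem258, also on the other strand, covers 5.37% and averaged 7263 in the libraries labelled knockout and 8910 in those labelled WT. Lig1, the ligase that seals the fragments, had 2472 and 2379 against 2661 and 2622 in the libraries labelled WT, with a log2 fold change of -0.12 (confidence interval -0.26 to 0.02). Uhrf1, which brings the maintenance methyltransferase to new DNA, had 2224 and 2300 in the libraries labelled knockout against 1952 and 2029 in those labelled WT, with a log2 fold change of 0.18 (limma adjusted p = 0.0647), or -0.12 with median centring. Slbp, which binds the stem-loop of histone messages, had 4452 and 4765 against 4969 and 4986 in the libraries labelled WT, with a log2 fold change of -0.11. The chromatin assembly subunits Chaf1a and Chaf1b had log2 fold changes of 0.090, turned by median centring, and -0.056, and 52.5% of the exon length of Chaf1a is shared with Ubxn6 on the other strand. Smaller overlaps with a gene on the other strand, each smaller than that of Rfc2, were annotated for Rfc4, Slbp, Mcm7, Cdc45, Lig1, Tk1, Msh6 and Pole.

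**Figure D3:**
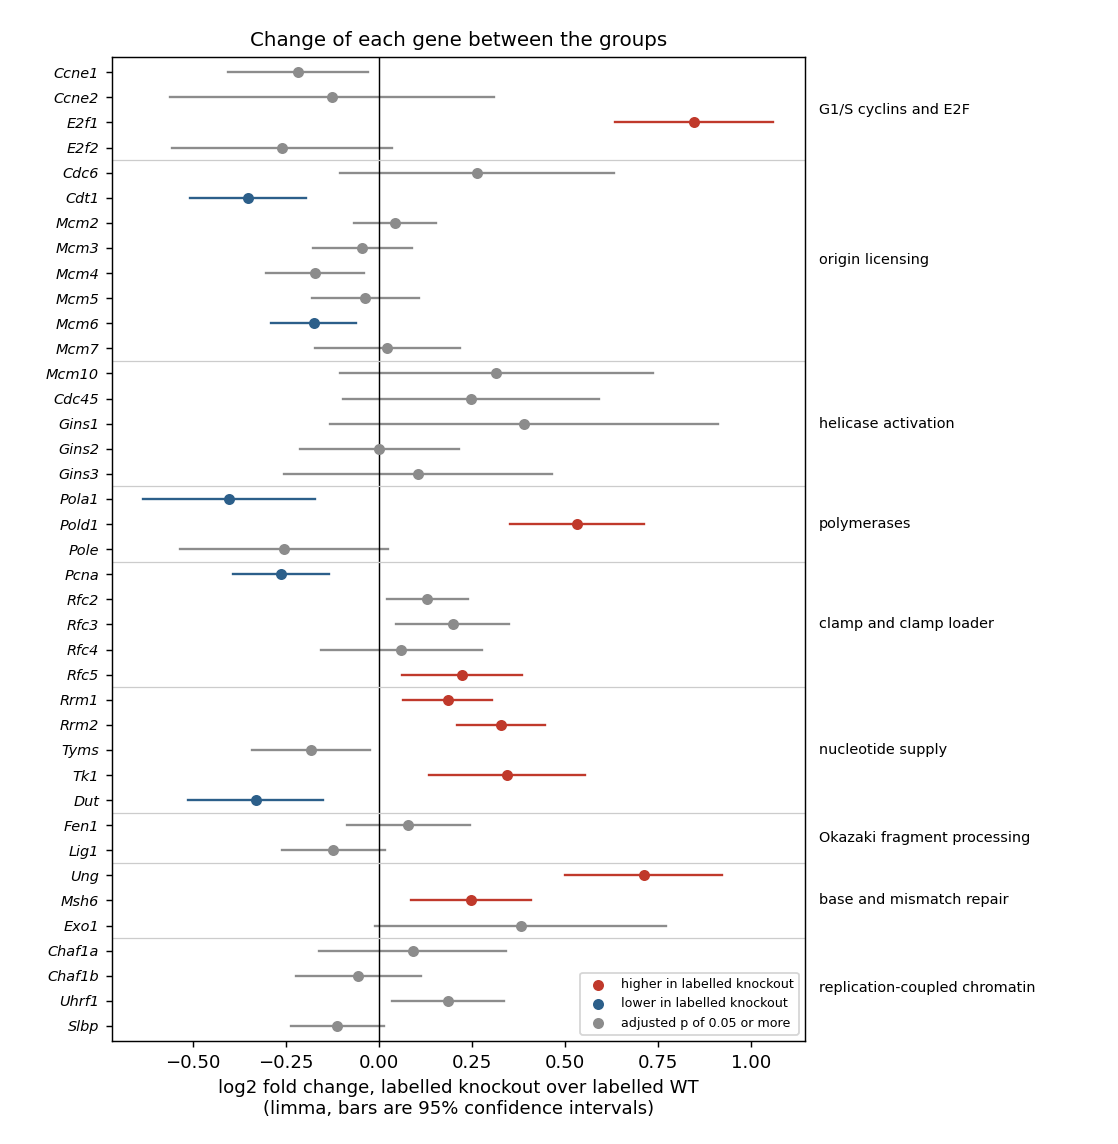
Log2 fold change of each gene, libraries labelled knockout over libraries labelled WT, with its 95% confidence interval from limma, coloured by call. E2f1, Ung and Pold1 stand furthest to the right at 0.85, 0.71 and 0.53, and Pola1 furthest to the left at -0.40.

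The rest of the pathway was read from lists that hold none of the 39 members. Of 52 other replication fork genes, 6 rose and 12 fell, with a median log2 fold change of -0.08. The share called, 34.6%, is close to the 33.4% of all genes tested, with 11.5% higher and 23.1% lower, where 19.9% and 13.4% of all genes were. Cdc7, the kinase that fires licensed origins, had 934 and 872 in the libraries labelled knockout against 605 and 590 in those labelled WT (log2 fold change 0.59, limma adjusted p = 0.00409), and Timeless and Rfc1 rose by 0.51 and 0.29 (log2), with Rfc1 turning sign under median centring. Rpa2 and Rnaseh2c, a single-strand binding subunit and a subunit of the ribonuclease that removes RNA from DNA, fell by 0.47 and 0.44 on the log2 scale. Leaving out either library labelled knockout left 0 higher and 2 lower by limma (5 higher at an unadjusted p under 0.05 in each case), and median centring gave 1 and 37.

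Of 28 other nucleotide synthesis genes, 3 rose and 4 fell, with a median of -0.07, which is 25.0% called where 33.4% of all genes tested were. Atic, Prps2 and Gart, all of purine synthesis, rose by 0.27, 0.23 and 0.20 on the log2 scale, and all 3 signs turned with median centring. Impdh1, of guanine nucleotide synthesis, fell by 0.44, Cad, which starts pyrimidine synthesis, fell by 0.43, and Samhd1, which breaks deoxyribonucleotides down, fell by 0.28 on the log2 scale. Leaving out either library labelled knockout left 0 called by limma, with 3 higher and 3 lower at an unadjusted p under 0.05 without replicate 1 and 3 and 4 without replicate 2. Median centring gave 0 higher and 20 lower, also at an unadjusted p, and DESeq2 gave 3 and 7.

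The G1 regulators held the largest change of the pathway. Ccnd1, the cyclin D1 partner of CDK4 and CDK6, had 12269 and 11873 in the libraries labelled knockout against 1303 and 1229 in those labelled WT, 9.53-fold higher (log2 fold change 3.25 with a standard error of 0.05, limma adjusted p = 3.39e-07). Ccnd2, another D-type cyclin, had 23188 and 23573 against 30407 and 29648 in the libraries labelled WT, with a log2 fold change of -0.36 (limma adjusted p = 3.18e-04). Cdkn2d and Cdkn1a, inhibitors of cyclin-dependent kinases, rose by 0.81 and 0.62 on the log2 scale, while Rbl2, a relative of the retinoblastoma protein, fell by 0.35 and Cdk4 fell by 0.15. In all, 7 of 33 genes of G1 and S control rose and 4 fell, with a median of 0.053, or -0.25 with median centring, which gave 4 and 14. The share called, 33.3%, is that of the background, 33.4%, and no result about this list. Leaving out either library labelled knockout left 2 and 1. Siglech and the other dendritic cell markers above moved in the same libraries, and their part in the change of Ccnd1 was not tested.

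The genes of the next phase were read as well. Of 40 genes of G2 and mitosis, none rose and 4 fell by limma, with a median log2 fold change of -0.04; edgeR and DESeq2 gave the same counts, and at an unadjusted p under 0.05 the counts were 0 and 7. The share called, 4 of 40, lies below the 33.4% of all genes tested. Cdc25b, Pttg1 and Racgap1 fell by 0.35, 0.46 and 0.20 on the log2 scale. The 40 genes summed to 59410 and 58980 in the libraries labelled knockout against 65386 and 67590 in those labelled WT. Beside the T cell marker sum, which was also lower under the knockout label, that is 9.32% and 9.12% against 7.05% and 7.40% in the libraries labelled WT. Leaving out knockout-labelled replicate 1 or 2 left 0 called by limma, with 4 and 6 lower at an unadjusted p under 0.05, and median centring gave 20 lower.

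**Figure D4:**
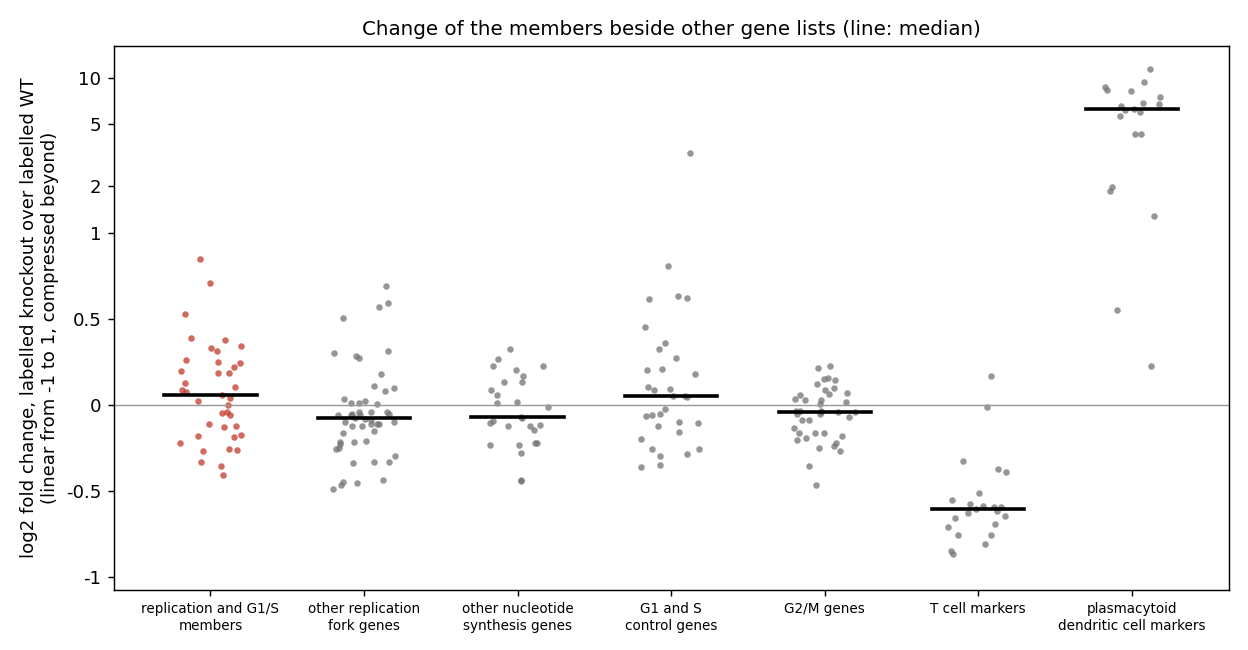
Log2 fold change of single genes, libraries labelled knockout over libraries labelled WT, for the 39 members (red) and 6 other lists (grey), with the median as a line; the axis is linear from -1 to 1 and compressed beyond. The medians of the members and of the 4 cell cycle and nucleotide lists lie between -0.077 and 0.060 (all below 0 with median centring), that of the T cell markers at -0.60 and that of the plasmacytoid dendritic cell markers at 6.25.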

How the data were processed

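RNA of CD8+ T cells in 4 libraries was analysed from the authors' table. Per the submitters' processing notes, the tools named were DESeq2, StringTie 2.1.4, HISAT2 2.2.1 and Trim Galore 0.4.4, with build mm10. The sources used here do not give settings, annotation or the use of strand. Per the file headers and values, the authors deposited normalized counts, a signal of reads divided by a size factor, with a mean per gene, a log2 fold change with its error, a test score, and raw and adjusted p-values. By their sign against the columns, the deposited log2 values are WT over knockout. All values were whole multiples of 1 step within 0.01 reads (100.0%), which gave back whole counts totalling 58899365 to 59724952 reads per library. Groups came from the titles. The members and gene lists were chosen with earlier results of these data known.

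The main test was limma 3.58.1 (eBayes, trend and robust variance, no covariate) on log2(normalized count + 1), which understates changes of low values, for the 18378 genes at 10 or more in at least 2 libraries. Two-sided p-values were adjusted over these genes (Benjamini-Hochberg) and called under 0.05. Intervals are 95% and come from the same fit. Alternatives were a pseudocount of 0.1 or 10, a minimum of 50 or none, centring on library medians, no robust variance, the replicate number as a block, each library left out, and edgeR 4.0.16 (TMM) and DESeq2 1.42.0 on recovered counts, where edgeR called 3691 genes higher and 2652 lower. Scripts were tested on simulated counts. Neither pair of replicates was a duplicate, since their counts differed beyond sampling noise (chi-square over degrees of freedom 6.75 in libraries labelled knockout and 23.6 in those labelled WT). Gene positions and exon lengths are those of GENCODE M21 on GRCm38, the assembly of mm10, by exact symbol. Levels per kilobase divide the normalized count by the summed length of all annotated exons. That length can exceed the length of the transcripts present, so an order of genes per kilobase depends on the annotation. Genes named are all members and, from each list, up to 3 with the smallest adjusted p in each direction or, for markers, the highest mean level; other markers, such as those at 0, were added after their values were seen. A gene that this rule names is not reported here.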

Additional observations from a re-analysis of the deposited data

How the results depend on the processing

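The 39 members gave 8 higher and 5 lower calls. Median centring gave 3 and 20 (2389 and 7210 over all genes, against 3662 and 2469), no filter gave 5 higher and 4 lower (Mcm6, Msh6, Rfc5 and Rrm1 lost), and leaving out 1 library gave 2 to 9 higher and 0 to 7 lower (all genes: 1309 to 4137 higher and 630 to 2759 lower). The other alternatives run, among them edgeR and DESeq2, gave 7 to 9 higher and 5 or 6 lower members, and no setting called one of the 13 members the other way. Fits without 1 library assume that the lone library varies like the others. The replicate block kept 12 of the 13 calls (7 higher, 5 lower, Rrm1 lost) and 3415 higher and 2168 lower genes. Deviations of same-numbered libraries had a correlation of 0.02 over the genes tested. The labels do not say whether the numbers pair libraries, and that correlation cannot settle it. Irf8 kept its call in each setting.

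Signs of members turned as follows, and the cause was not tested beyond the lowering by 0.30 that median centring makes. With median centring the log2 fold changes were -0.037 (Cdc6), -0.26 (Mcm2), -0.28 (Mcm7), -0.053 (Cdc45), -0.30 (Gins2), -0.20 (Gins3), -0.17 (Rfc2), -0.10 (Rfc3), -0.24 (Rfc4), -0.077 (Rfc5), -0.12 (Rrm1), -0.22 (Fen1), -0.053 (Msh6), -0.21 (Chaf1a) and -0.12 (Uhrf1). Gins2 was at -0.0078 with edgeR and -0.0092 with DESeq2. Leaving out 1 library gave -0.34 to 0.084 for Ccne2, -0.11 to 0.016 for Mcm3, -0.100 to 0.025 for Mcm5, -0.077 to 0.12 for Mcm7, -0.061 to 0.062 for Gins2, -0.091 to 0.30 for Gins3 and -0.0012 to 0.18 for Chaf1a. The members with the fewest reads had the widest intervals: Gins1 held 95.7 to 147 normalized counts, and its interval spans changes from -0.13 to 0.91.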
